A study of Mus musculus with 9 samples.

Results

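The genes described here are the 3 chains Cd3d, Cd3e and Cd3g and the zeta chain Cd247 of the CD3 complex, the coreceptor Cd4, the costimulatory receptor Cd28, the kinases Lck and Zap70, and the adaptors Lat and Lcp2. They were matched by gene symbol in the table of raw counts: 10 of 10 were found among its 28111 genes, and all 10 were among the 14817 genes tested. The libraries were mRNA profiles of induced regulatory T cells, CD4 T cells brought in culture to express the factor Foxp3, from C57BL/6J mice. The Glut1Tg group held 4 libraries from mice with a Glut1 transgene, Glut1 being the glucose transporter encoded by Slc2a1, and the WT group held 5 libraries from wild-type mice. The labels also divide the mice: 1 of the Glut1Tg and 3 of the WT libraries belonged to mouse group 2, the other 3 Glut1Tg and 2 WT libraries to mouse group 1. What sets the mouse groups apart, which promoter drives the transgene and whether each library had its own animal are not stated, so a p-value here covers only library-to-library spread, possibly of technical origin.

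The T cell antigen receptor has no enzymatic activity of its own and passes its signal through the CD3 chains, whose cytoplasmic tails carry tyrosine motifs. Lck, brought to the receptor by CD4, phosphorylates these motifs, Zap70 docks on them, and Zap70 then phosphorylates the adaptors LAT and SLP-76 (Lcp2), on which phospholipase C gamma and other effectors assemble. Cd28 gives the costimulatory signal. Regulatory T cells use this same machinery and need receptor and CD28 signals for their formation.

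CPM are counts relative to the library total, after TMM scaling, which aligns libraries on the bulk of their genes. Library totals ran from 20881035 to 31196428 counts, and the 10 genes took 0.408% to 0.539% of them. Counts per gene and library were between 3942, for Zap70, and 28517, for Lck. Slc2a1, the check of the genotype labels, stood at 260.2, 496, 279 and 457 CPM in Glut1Tg replicates 1 to 4, against 52.0, 36.6, 58.7, 33.3 and 29.7 CPM in WT replicates 1 to 5, and all Glut1Tg libraries lay above all WT libraries (7.58-fold, 95% interval 5.65 to 10.2, edgeR adjusted p = 0.000903). Xist, which is expressed from the inactive X chromosome of females, stood at 256 and 340.2 CPM in Glut1Tg replicates 2 and 4 and at most at 1.32 CPM in the other 7 libraries. The Y-linked gene Ddx3y stood at 0.298 and 0 CPM in those replicates and at 57.5 to 145 CPM in the other 7 libraries. The only libraries with a female pattern were thus Glut1Tg ones of mouse group 1. Sex and genotype are therefore partly confounded, and the part of sex was not tested. Along the first principal component (50.7% of the variance of log2 CPM) Glut1Tg replicate 1 and WT replicate 2, both of mouse group 2, were the most distant, with a summed level of 5 proliferation markers of 3837 and 3955 CPM against 653 to 1765 CPM elsewhere. On the second component (20.4%) Glut1Tg replicate 3 was the most distant. All 6 macrophage and monocyte markers and 5 of 6 mast cell and basophil markers were highest in it, summing to 254 CPM (5.37 to 21.7 elsewhere) and 2372 CPM (92.4 to 831 elsewhere), and no marker of these lists was at 0 counts in any library. The identity of the cells was read from T cell markers other than the genes described here. Thy1 stood at 542 to 1241 CPM in Glut1Tg and 525 to 1209 CPM in WT, Cd2 at 399.7 to 566 CPM in Glut1Tg and 373 to 497 CPM in WT, Foxp3 at 621 to 822 CPM in Glut1Tg and 814 to 1164 CPM in WT, and the CD8 genes Cd8a and Cd8b1 together at 7.07 to 9.71 CPM in Glut1Tg and 8.69 to 10.5 CPM in WT. Of 6 regulatory T cell markers, Foxp3 among them, Il2ra and Tnfrsf18 were highest in Glut1Tg replicate 1 and WT replicate 2. Il2ra stood there at 2959 and 2386 CPM (241.2 to 690 elsewhere) and Tnfrsf18 at 491.2 and 408 CPM (162.5 to 211.5 elsewhere). Foxp3, Ikzf2, Ikzf4 and Ctla4 were not highest in these libraries. The part of this difference in the levels of the 10 genes was not tested. In bulk RNA, fewer cells of a type and less RNA per cell cannot be told apart.

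Cd3d, Cd3e and Cd3g form a cluster on mouse chromosome 9. In mm10, with GENCODE M21 as annotation, Cd3g lies at chr9:44969572-44980431 on the minus strand, Cd3d at chr9:44981786-44987339 on the plus strand, and Cd3e at chr9:44998740-45009627 on the minus strand. Cd3g and Cd3d are thus divergent, with annotated starts 1355 bases apart, while Cd3e starts on the far side of Cd3d. Cd247 lies apart at chr1:165788681-165877277, plus strand. The gene Pou2f1 overlaps its end on the opposite strand, and the antisense transcript Gm48719 overlaps Cd3e. No source used here gives the strand setting of the counting, so reads of such partners may be counted with them. Lat lies at chr7:126363824-126369570 on the minus strand.

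The 250 bases before the RefSeq start are printed for the 3 clustered CD3 genes and for Lat, because Cd3d, Cd3g and Lat moved together across the libraries and Cd3e did not, as given below. Sequences are from RefSeq on GRCm38.p6, which held a promoter for 8 of the 10 genes, not for Cd4 and Cd28. Each runs 5′ to 3′ on the gene's own strand and ends at the base before the start, and capitals mark the ETS core GGAA on either strand, which reads TTCC on the opposite one.
Cd3d: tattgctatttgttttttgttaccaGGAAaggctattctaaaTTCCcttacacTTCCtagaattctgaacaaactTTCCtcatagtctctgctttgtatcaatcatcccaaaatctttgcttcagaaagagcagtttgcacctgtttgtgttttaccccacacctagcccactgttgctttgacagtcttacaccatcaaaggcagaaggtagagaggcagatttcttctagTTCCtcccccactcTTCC
Cd3g: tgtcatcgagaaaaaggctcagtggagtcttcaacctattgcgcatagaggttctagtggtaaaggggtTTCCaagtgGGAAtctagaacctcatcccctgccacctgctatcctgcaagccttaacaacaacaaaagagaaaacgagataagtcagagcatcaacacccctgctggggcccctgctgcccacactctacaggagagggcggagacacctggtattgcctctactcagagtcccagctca
Cd3e: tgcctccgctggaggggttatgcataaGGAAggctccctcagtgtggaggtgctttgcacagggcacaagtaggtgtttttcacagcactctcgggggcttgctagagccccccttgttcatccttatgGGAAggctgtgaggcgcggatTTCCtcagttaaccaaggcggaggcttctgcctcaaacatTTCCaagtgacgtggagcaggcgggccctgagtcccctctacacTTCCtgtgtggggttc
Lat: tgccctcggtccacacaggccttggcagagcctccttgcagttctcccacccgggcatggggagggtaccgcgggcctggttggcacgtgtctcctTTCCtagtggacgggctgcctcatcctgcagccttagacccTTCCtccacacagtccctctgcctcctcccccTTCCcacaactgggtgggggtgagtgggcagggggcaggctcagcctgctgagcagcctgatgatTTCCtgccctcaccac
They span chr9:44981536-44981785 (plus strand), chr9:44980432-44980681, chr9:45009612-45009861 and chr7:126369569-126369818 (each minus strand). The ETS core occurred 6 times in the window of Cd3d, 2 times in that of Cd3g, 5 times in that of Cd3e and 4 times in that of Lat, and 93.4% of the 32851 mouse promoters of this length held at least 1. The RUNX motif TGTGGT, searched on both strands, had no match in these 4 windows and was present in 14% of all promoters. The E-box CANNTG, in which N is any base, occurred in all 4 and in 66.2% of all promoters. These matches only describe the letters of the windows.

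Levels were compared between genes on the scale of CPM per kilobase of annotated exon. On that scale the order of the mean over 9 libraries was Lck (305 ± 24.3, SD), Cd3d (249 ± 56.8), Lat (226 ± 59.5), Cd4 (169 ± 28.5), Cd3g (130.1 ± 17.5), Cd247 (90.8 ± 14.6), Cd3e (86.5 ± 9.47), Zap70 (69.0 ± 4.85), Cd28 (64.8 ± 35.7) and Lcp2 (62.5 ± 10.4). The ranges of all neighbours in this order overlapped. Within a library, however, Cd3g lay above Cd247 and Cd3e above Zap70 in 9 of 9 libraries, whereas Cd247 lay above Cd3e in 5, Zap70 above Cd28 in 5 and Cd28 above Lcp2 in 4. Of the kinases, Zap70 stood at 0.193 to 0.273 of the level of Lck in every library. The levels rest on exon lengths of the annotation and not on the isoforms present in these cells.

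**Figure D1:**
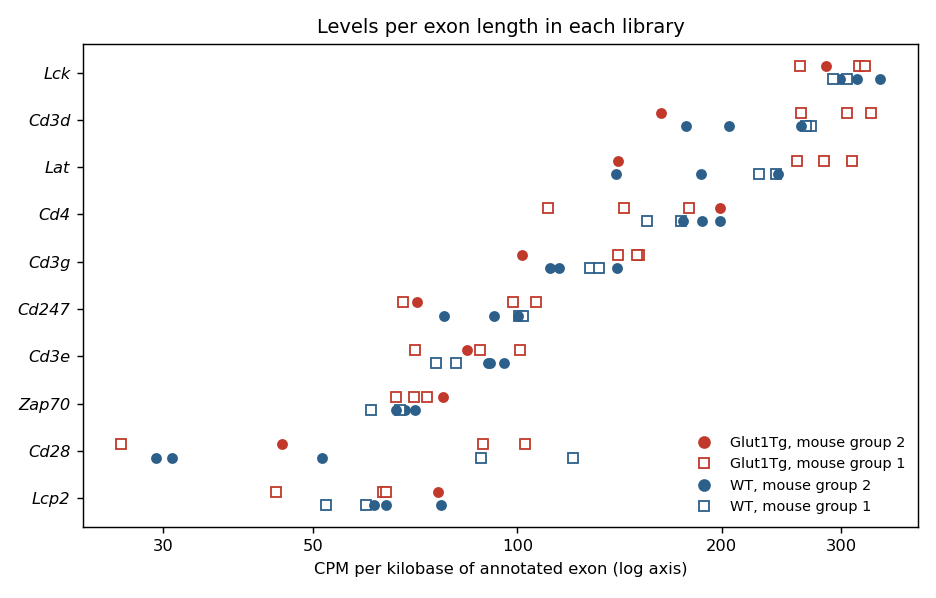
CPM per kilobase of annotated exon (log axis) of the 10 genes in each of the 9 libraries, with Glut1Tg points above WT points in each row, filled circles for mouse group 2 and open squares for mouse group 1. Lck has the highest mean (points from 261 to 343) and lies above Cd3d in 7 of 9 libraries, and Cd28 has the widest range on the log axis (26.0 to 121).

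Between genotypes, none of the 10 genes passed the test. In edgeR's quasi-likelihood fit over 14817 genes, with mouse group as a term, 0 of 10 had an adjusted p under 0.05 and 0 of 10 an unadjusted p under 0.05, where over all genes the shares were 0.00675% (1 gene, Slc2a1) and 6% (889 genes). Fitted log2 fold changes of Glut1Tg over WT lay between -0.23 (Cd247) and 0.15 (Zap70), 5 positive and 5 negative (upper-quartile scaling turned the signs of Cd3e, Cd3g and Lat), with a median of -0.019 beside 0.022 over all genes tested. The median size of these changes, sign set aside, was 0.069 on the log2 scale for the 10 genes and 0.23 over all genes. The genotypes overlapped in each of the 10 genes, and over all genes 1.59% did not overlap. The 95% intervals bound what could have been missed: the narrowest, that of Zap70, reached 1.18-fold to either side of its fold change, and the widest, that of Cd28, 1.84-fold.

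**Figure D2:**
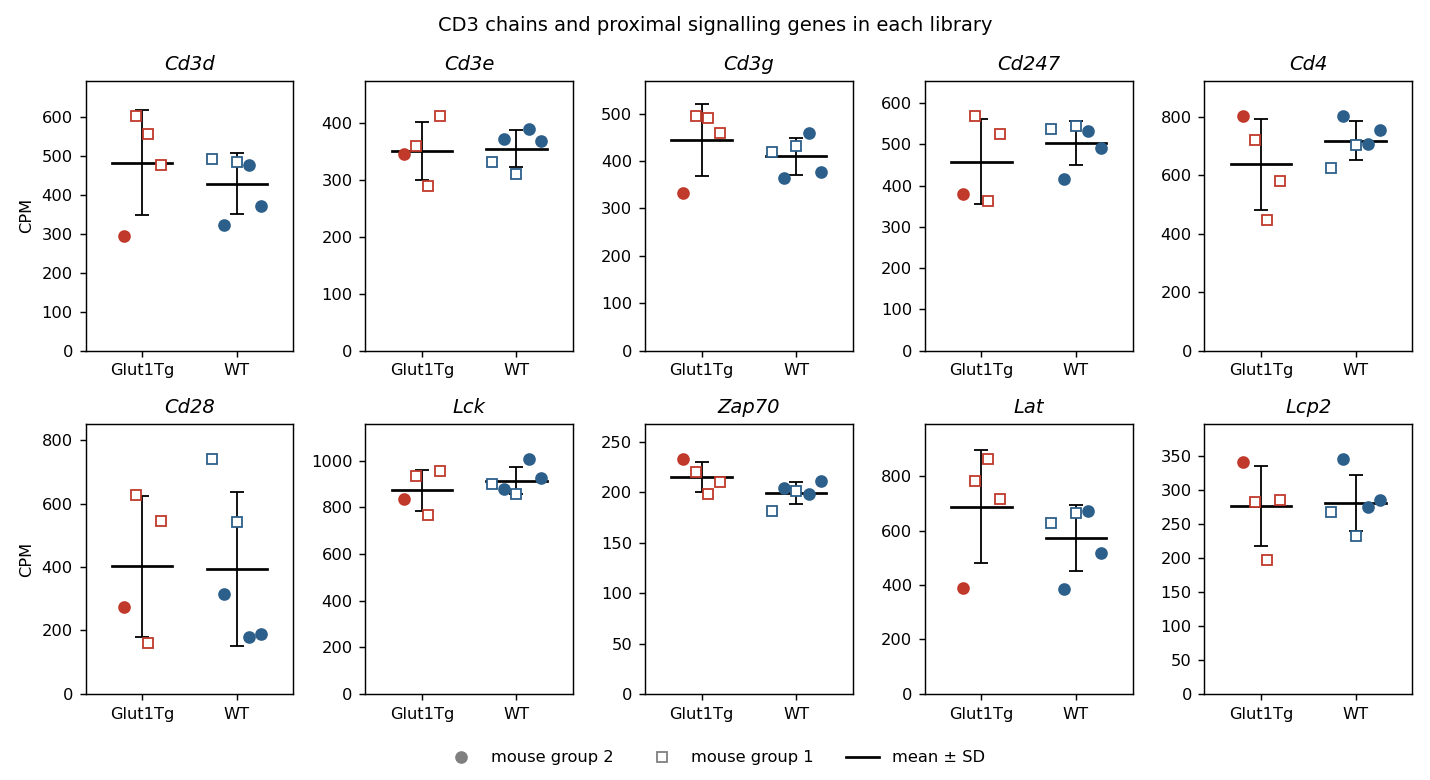
CPM of each gene in the 4 Glut1Tg and 5 WT libraries, with filled circles for mouse group 2, open squares for mouse group 1, and horizontal bars with whiskers for mean ± SD. Genotypes overlap in every panel, and Cd28 spreads from 159 to 739 CPM while Zap70 stays between 182 and 233 CPM.

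Among the CD3 chains, Cd3e, the epsilon chain that pairs with both gamma and delta, stood at 344, 359, 288 and 411 CPM in Glut1Tg replicates 1 to 4, against 332, 371, 309.8, 389.6 and 369 CPM in WT replicates 1 to 5. The means were 351 ± 50.6 CPM in Glut1Tg and 354 ± 32.5 CPM in WT (SD, n = 4 and n = 5), and both the lowest and the highest library were Glut1Tg ones. Its fitted difference was near 0 (log2 fold change 0.037, SE 0.14, 95% interval -0.28 to 0.36, edgeR adjusted p = 0.942).

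Cd3d, the delta chain, stood at 295, 602, 556 and 476 CPM in Glut1Tg replicates 1 to 4, against 491, 322, 484, 476 and 372 CPM in WT replicates 1 to 5. The lowest libraries of either genotype were Glut1Tg replicate 1 and WT replicate 2, and Glut1Tg replicates 2 and 3 lay above every WT library. The genotype means were 482 ± 135 CPM in Glut1Tg and 429 ± 77.3 CPM in WT (SD), and with mouse group in the fit the difference was -0.05 on the log2 scale (95% interval -0.46 to 0.36, edgeR adjusted p = 0.940).

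Cd3g, the gamma chain, had 332, 495, 490.4 and 460.1 CPM in Glut1Tg replicates 1 to 4, against 419, 365, 431, 459 and 376 CPM in WT replicates 1 to 5. As for Cd3d, Glut1Tg replicate 1 was lowest and WT replicate 2 next. Its fitted fold was 1.01-fold, 95% interval 0.807 to 1.26 (edgeR adjusted p = 0.979).

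Cd247, the zeta chain, which forms a homodimer and carries the largest number of tyrosine motifs of the complex, had 379, 568, 362 and 524 CPM in Glut1Tg replicates 1 to 4, against 536, 416, 544, 533 and 492 CPM in WT replicates 1 to 5. Here Glut1Tg replicates 1 and 3 were lowest, below all WT libraries, and Glut1Tg replicate 2 was highest. This was the most negative of the genotype differences, and it did not pass (log2 fold change -0.23, SE 0.17, 95% interval -0.61 to 0.15, edgeR adjusted p = 0.689). Both of these Glut1Tg libraries were also distant ones on a principal component.

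Cd4, the coreceptor that binds MHC class II and carries Lck, stood at 802, 721, 448 and 579 CPM in Glut1Tg replicates 1 to 4, against 626, 802, 703, 709 and 756 CPM in WT replicates 1 to 5. Glut1Tg replicate 3 was lowest, and the highest values, 802 CPM each, were those of Glut1Tg replicate 1 and WT replicate 2. The fitted fold was 0.945-fold, 95% interval 0.732 to 1.22 (edgeR adjusted p = 0.880).

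Lck, the Src family kinase that starts the cascade, had 835, 934, 765 and 955 CPM in Glut1Tg replicates 1 to 4, against 898, 877, 855, 1005 and 927 CPM in WT replicates 1 to 5, a range of 1.31-fold over all libraries. Glut1Tg replicate 3 was again lowest. The fitted fold was 0.963-fold, 95% interval 0.785 to 1.18 (edgeR adjusted p = 0.905).

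Zap70, the kinase that docks on phosphorylated CD3 chains, had 233, 220.2, 198 and 210.3 CPM in Glut1Tg replicates 1 to 4, against 182, 204, 201, 198 and 212 CPM in WT replicates 1 to 5. It was the steadiest of the genes, at 1.28-fold from lowest to highest library. Its log2 SD of 0.101 over the libraries ranked at percentile 1.13 among the 2386 genes with a mean of at least 100 CPM, whose median SD was 0.34. The genotype difference of Zap70 (log2 fold change 0.15, SE 0.10, 95% interval -0.083 to 0.38) was the largest positive one and did not pass (edgeR adjusted p = 0.682).

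Lat, the membrane adaptor, had 389.8, 783, 861 and 715 CPM in Glut1Tg replicates 1 to 4, against 628, 386, 665, 671 and 517 CPM in WT replicates 1 to 5. All 3 Glut1Tg libraries of mouse group 1 lay above every WT library, and Glut1Tg replicate 1 and WT replicate 2 were nearly equal and lowest. With mouse group in the fit the fold was 1.01-fold, 95% interval 0.723 to 1.42 (edgeR adjusted p = 0.978).

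Lcp2, the cytosolic adaptor SLP-76, had 340.1, 283, 196 and 285 CPM in Glut1Tg replicates 1 to 4, against 267, 344, 232, 274 and 285 CPM in WT replicates 1 to 5. It was highest in Glut1Tg replicate 1 and WT replicate 2 and lowest in Glut1Tg replicate 3, with a fitted fold of 1.06-fold, 95% interval 0.832 to 1.35 (edgeR adjusted p = 0.867).

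Cd28, the receptor for CD80 and CD86, varied most, with 275, 627, 159 and 545 CPM in Glut1Tg replicates 1 to 4, against 739, 316, 542, 179.6 and 189 CPM in WT replicates 1 to 5. Glut1Tg replicates 2 and 4 and WT replicates 1 and 3, all of mouse group 1, had at least 542 CPM, and the other 5 libraries had at most 316 CPM. The lowest value came from Glut1Tg replicate 3, the remaining library of mouse group 1. Its log2 SD of 0.85 ranked at percentile 95.8 among the same genes. The genotype means were 402 ± 221 CPM in Glut1Tg and 393 ± 242 CPM in WT (SD), and the fitted difference had the widest interval of the 10 genes (log2 fold change -0.21, SE 0.39, 95% interval -1.09 to 0.67, edgeR adjusted p = 0.870).

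Between mouse groups, the fit with genotype as a term called 3576 of 14817 genes (24.1%) at an adjusted p under 0.05, 1946 higher (13.1%) and 1630 lower (11%) in mouse group 2 than in mouse group 1. Of the 10 genes, 0 passed. Cd28, Cd3d and Lat had an unadjusted p under 0.05, all lower in mouse group 2, against 39.4% of all genes in either direction and 18.4% lower. The count of 3 of 10 lay between these shares and is not read as a result about the 10 genes. Log2 differences of the 10 genes were 5 positive and 5 negative, with a median of -0.11 beside -0.014 over all genes. Their median size was 0.27 on the log2 scale, beside 0.46 over all genes.

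Cd28 averaged 239.9 ± 66.4 CPM in mouse group 2 and 522 ± 218 CPM in mouse group 1 (SD, n = 4 and n = 5; 0.444-fold, 95% interval 0.238 to 0.830, edgeR adjusted p = 0.0610). Without Glut1Tg replicate 3 the groups did not overlap in Cd28 and the difference passed (log2 fold change -1.33, edgeR adjusted p = 0.00473). This follows in part from leaving out the library that broke the separation. Cd28 passed in 1 of the 9 runs with 1 library left out, with edgeR adjusted p up to 0.168. Glut1Tg replicate 3 had the highest summed markers of macrophages, mast cells and gamma delta T cells, the last summing to 136 CPM against 5.07 to 33.0 CPM elsewhere. The part of these cells in the result was not tested. Cd3d averaged 366 ± 79.9 CPM in mouse group 2 and 522 ± 55.0 CPM in mouse group 1 (0.692-fold, 95% interval 0.521 to 0.919, edgeR adjusted p = 0.0608). Lat averaged 491 ± 134 CPM in mouse group 2 and 730.4 ± 93.5 CPM in mouse group 1 (0.676-fold, 95% interval 0.482 to 0.949, edgeR adjusted p = 0.0866). In both genes WT replicate 4 was the library of mouse group 2 that stood among those of mouse group 1. Without it they passed (log2 fold change -0.66 for Cd3d and -0.72 for Lat, edgeR adjusted p = 0.0176 and 0.0192), which again follows in part from that choice. Each passed in 1 of the 9 runs with 1 library left out, with edgeR adjusted p up to 0.394 for Cd3d and 0.494 for Lat. The lowest values of both were those of the libraries with the highest proliferation markers, Glut1Tg replicate 1 and WT replicate 2, and the part of proliferation was not tested. Without those libraries the log2 difference was -0.19 for Cd3d and -0.11 for Lat (edgeR adjusted p = 0.603 and 0.773).

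Cd4 and Lcp2 leaned the other way without passing. Cd4 averaged 767 ± 44.6 CPM in mouse group 2 and 615 ± 110.0 CPM in mouse group 1 (1.22-fold, 95% interval 0.950 to 1.58, edgeR adjusted p = 0.215), and Lcp2 311 ± 36.4 CPM in mouse group 2 and 253 ± 38.0 CPM in mouse group 1 (1.26-fold, 95% interval 0.984 to 1.601, edgeR adjusted p = 0.151). For Cd3g the fold was 0.838, for Cd247 0.846, for Cd3e 1.09, for Zap70 1.08 and for Lck 1.02, with edgeR adjusted p from 0.217 to 0.894. Whether the genotype difference differed between mouse groups was tested as an interaction, which called 0 of 14817 genes (0%) in edgeR, with 786 (5.3%) at an unadjusted p under 0.05 and 2 genes by DESeq2. None of the 10 genes had an unadjusted interaction p under 0.05, but without WT replicate 2 the count was 2 of the 10, with 3420 of all genes. The smallest in the fit of all libraries was that of Lat (log2 difference -0.71, SE 0.38, edgeR unadjusted p = 0.0996, adjusted p = 0.741). This test rests on the single Glut1Tg library of mouse group 2.

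**Figure D3:**
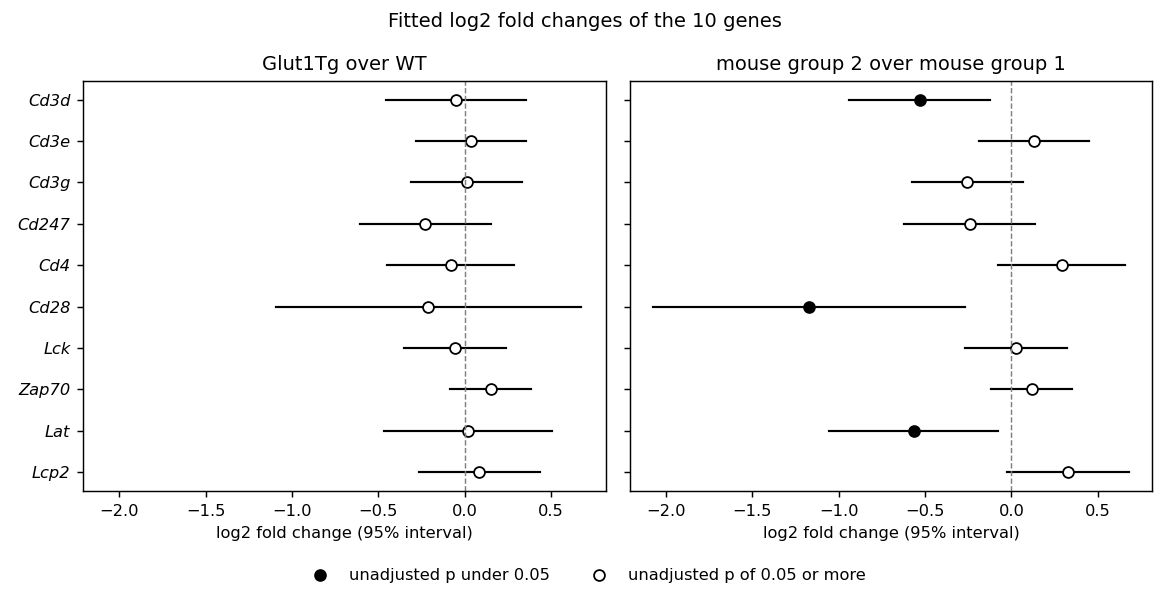
Fitted log2 fold changes with 95% intervals of the 10 genes for Glut1Tg over WT (left) and for mouse group 2 over mouse group 1 (right), with filled points at an unadjusted p under 0.05. Every genotype interval includes 0, and for mouse group the intervals of Cd3d (-0.53), Cd28 (-1.17) and Lat (-0.56) do not.

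Within mouse group 1 alone, where 3 Glut1Tg libraries met 2 WT libraries, 0 of the 10 genes passed. Means there were 545 CPM in Glut1Tg and 488 CPM in WT for Cd3d, and 786 CPM in Glut1Tg and 646 CPM in WT for Lat. For Cd247 they were 485 CPM in Glut1Tg and 540.2 CPM in WT, and for Cd28 444 CPM in Glut1Tg and 640.4 CPM in WT. In mouse group 2 the single Glut1Tg library had 295 CPM of Cd3d against a mean of 390.1 in the 3 WT libraries, and 389.8 CPM of Lat against a WT mean of 525. In mouse group 1 the Glut1Tg means of Cd3d and Lat thus lay above the WT means, and in mouse group 2 the single Glut1Tg library lay below them. The WT libraries there were unlike: WT replicates 2, 4 and 5 had 322, 476 and 372 CPM of Cd3d. For Lat they had 386, 671 and 517 CPM, so the Glut1Tg library was nearly equal to WT replicate 2. The interaction test above, which rests on that single Glut1Tg library, called neither gene.

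Across libraries the genes fell into patterns that cut through the CD3 complex. Cd3d, Cd3g and Lat varied together (Pearson r of log2 CPM 0.96 for Cd3d with Cd3g, 0.97 for Cd3d with Lat and 0.96 for Cd3g with Lat over 9 libraries, and at least 0.90 in the 7 libraries without those apart on the first component). Cd3e did not follow them (r of -0.25 with Cd3d, -0.12 with Cd3g and -0.25 with Lat) and was most alike Lck (r = 0.85). Cd4 and Lcp2 varied together (r = 0.81) and ran opposite to Lat (r of -0.74 and -0.81). In the same 7 libraries these values were weaker, at 0.72 for Cd4 with Lcp2, -0.67 for Cd4 with Lat and -0.55 for Lcp2 with Lat. These correlations are descriptions over 9 libraries that share scaling and depth, and the pairs named were chosen after all pairs had been seen. The ratio of Cd3d to Cd3e per exon length shows the same split, at 1.93 to 4.33 in Glut1Tg and 1.95 to 3.51 in WT, and it was lowest in Glut1Tg replicate 1 and WT replicate 2. The ratio of Cd3d to Cd3g stayed between 1.59 and 2.19. The ratio of Lat to Lcp2 ran from 1.85 to 7.08 in Glut1Tg and 1.81 to 4.61 in WT.

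**Figure D4:**
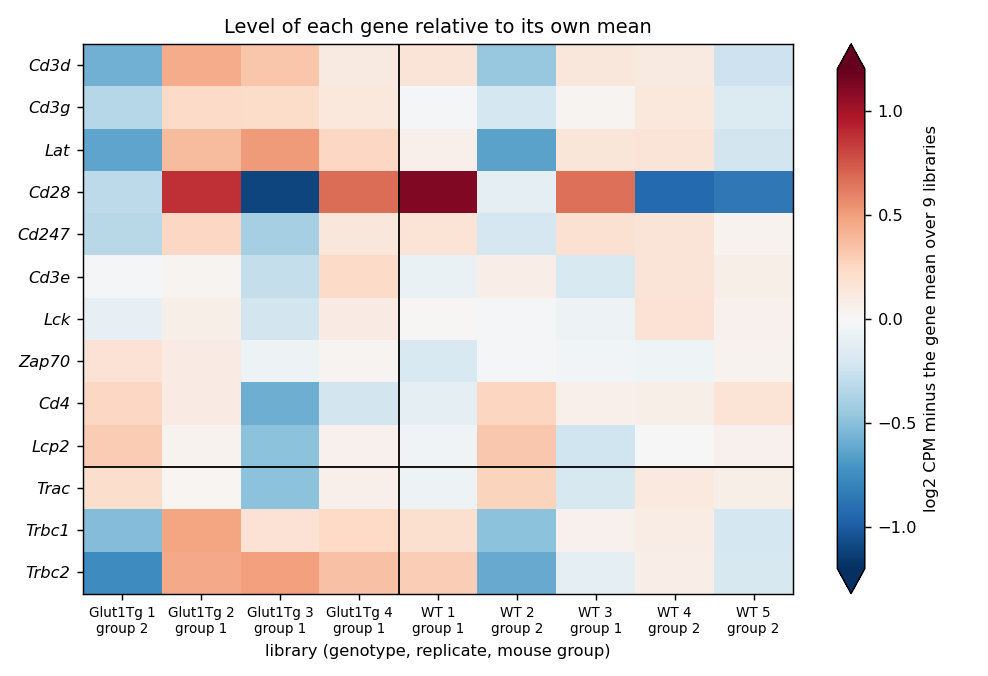
Log2 CPM of the 10 genes and of 3 receptor constant-region genes in each library, minus the gene's mean over the 9 libraries (colour scale), with Glut1Tg libraries left of the vertical line. Cd3d, Cd3g, Lat, Trbc1 and Trbc2 are low in Glut1Tg 1 and WT 2, Cd4, Lcp2 and Trac are low in Glut1Tg 3, and Cd28 is high in 4 libraries of mouse group 1.

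The antigen receptor chains themselves showed both patterns. Trbc1 and Trbc2, the constant regions of the beta chain, varied with Cd3d (r of 0.97 and 0.95 over 9 libraries) and Trac, the constant region of the alpha chain, with Lcp2 (r = 0.97) and Cd4 (r = 0.84). Trbc1 and Trbc2 are similar in sequence, and reads may be split between them. Trac stood at 592, 518, 363 and 533 CPM in Glut1Tg replicates 1 to 4, against 490.0, 613, 448, 553 and 536 CPM in WT replicates 1 to 5, and Trbc2 at 439.9, 1017, 1047 and 952 CPM in Glut1Tg replicates 1 to 4, against 911, 491, 687, 786 and 652 CPM in WT replicates 1 to 5. Trac was higher in all 4 libraries of mouse group 2 than in any of mouse group 1, which 10.5% of all genes were, and its difference did not pass (1.23-fold, 95% interval 0.974 to 1.55, edgeR adjusted p = 0.172). Of the 7 receptor chain genes measured, 1 passed between mouse groups, where 24.1% of all genes did. By DESeq2 3 of the 7 passed, where 4791 of 14758 genes did. The gene called in edgeR was Trdc, the delta chain of gamma delta T cells. Trdc was lower in mouse group 2, at 5.31 ± 0.877 CPM, than in mouse group 1, at 25.3 ± 17.5 CPM (0.240-fold, 95% interval 0.117 to 0.495, edgeR adjusted p = 0.0145). Between genotypes 0 of the 7 passed and 2 had an unadjusted p under 0.05, the gamma chain genes Tcrg-C2 and Tcrg-C4. They stood at 10.8 ± 6.07 and 2.86 ± 1.69 CPM in Glut1Tg against 5.29 ± 4.06 and 0.993 ± 0.585 CPM in WT. Whether reads are shared between gamma chain genes was not tested. The median log2 fold change of the 7 was 0.27 and moved with the libraries included: it was 0.80 without Glut1Tg replicate 1, 0.46 without Glut1Tg replicate 2 or Glut1Tg replicate 4, -0.011 without Glut1Tg replicate 3, 0.033, 0.17, 0.0033 and 0.40 without WT replicates 1 to 4 in turn, and 0.84 in mouse group 1 alone. Without Glut1Tg replicate 1, Glut1Tg replicate 3, WT replicate 1, WT replicate 3 or WT replicate 5, 0 of the 7 had an unadjusted p under 0.05.

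Genes most like the mean of the 4 CD3 chains over 9 libraries, among 9022 genes with a mean of at least 10 CPM, were Tprgl (r = 0.98), Limd2 (0.97), the interferon gamma receptor chain Ifngr1 (0.97), Iqsec1 (0.96) and Slfn2 (0.96). In the 7 libraries without those apart on the first component, r was 0.89 to 0.96 for these genes. The 4 chains did not share 1 pattern, with r of -0.25 for Cd3e with Cd3d and -0.12 for Cd3e with Cd3g. Cd3d also had a larger log2 SD (0.35) than Cd3e (0.16). A likeness to the mean is thus not a likeness to each chain. Tprgl had 111 CPM in Glut1Tg replicate 1 and 121 CPM in WT replicate 2, its lowest values, and 214 CPM in Glut1Tg replicate 2, its highest, which were also the extremes of the CD3 mean (-0.32, -0.20 and 0.24 on the centred log2 scale).

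Cd28 lies on chromosome 1 at chr1:60716800-60773359 (plus strand), next to Ctla4 at chr1:60887000-60915832 and Icos at chr1:60977927-61000320, which encode related receptors, CTLA-4 competing with CD28 for its ligands. Ctla4 stood at 367, 621, 370.2 and 575 CPM in Glut1Tg replicates 1 to 4, against 654, 383, 666, 354 and 368 CPM in WT replicates 1 to 5. As in Cd28, the 4 highest libraries were Glut1Tg replicates 2 and 4 and WT replicates 1 and 3, and r between the genes was 0.94 over 9 libraries. Ctla4 was lower in mouse group 2 and passed (368 ± 12.0 CPM against 577 ± 121 CPM in mouse group 1; 0.611-fold, 95% interval 0.466 to 0.801, edgeR adjusted p = 0.0197). Icos did not share the pattern (r = 0.10), with 130 to 151 CPM in Glut1Tg and 122 to 156 CPM in WT. Icos and the comparison of neighbours were chosen after values were seen.

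Other genes of the pathway were read from lists chosen with earlier results of these data known. Between genotypes, 0 genes of the 5 lists passed (edgeR; 3 had an unadjusted p under 0.05, and DESeq2 called 0 as well). Of the 22 other kinases, adaptors and effectors, 21 had a negative and 1 a positive log2 fold change (median -0.21, beside 0.022 over all genes tested), with 1 at an unadjusted p under 0.05. That gene was the adaptor gene Fyb, named after its values were seen, at 415 ± 172 CPM in Glut1Tg and 519.9 ± 99.0 CPM in WT (edgeR adjusted p = 0.681). Of the 20 negative regulators, 15 were negative and 5 positive (median -0.28), none at an unadjusted p under 0.05. Glut1Tg replicate 3, the library with the highest macrophage and mast cell markers, held the lowest value of 6 of the 10 CD3 and proximal signalling genes. Without it the medians were -0.15 for the kinases, adaptors and effectors (18 of 22 negative) and -0.13 for the negative regulators (14 of 20 negative). Without Glut1Tg replicate 1 instead, they were -0.14 (18 of 22 negative) and -0.21 (15 of 20 negative). With no mouse group term they were -0.093 (19 of 22 negative) and -0.18 (16 of 20 negative). The cause of these shifts was not tested. Of the 16 early receptor-induced genes 13 were positive (median 0.18), but without Glut1Tg replicate 1 the count was 7 and the median -0.10.

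Between mouse groups, 3 of the 22 kinases, adaptors and effectors passed, all lower in mouse group 2, beside 11% of all genes lower. Among them were Bcl10, which links the receptor to NF-kappaB (61.4 ± 7.71 CPM in mouse group 2 and 101 ± 10 CPM in mouse group 1; 0.597-fold, 95% interval 0.479 to 0.743, edgeR adjusted p = 0.00765) and the receptor-associated adaptor Trat1 (0.459-fold, edgeR adjusted p = 0.0344). Of the 20 negative regulators 4 were higher and 3 lower in mouse group 2, beside 13.1% of all genes higher and 11% lower. Csk, the kinase that inactivates Lck, stood at 413, 269.6, 234 and 251 CPM in Glut1Tg replicates 1 to 4, against 223, 365, 239, 349 and 348 CPM in WT replicates 1 to 5. All libraries of mouse group 2 lay above all of mouse group 1 (1.57-fold, 95% interval 1.33 to 1.86, edgeR adjusted p = 0.00467). Ubash3a, a suppressor of receptor signalling, averaged 107 ± 3.44 CPM in mouse group 2 and 45.0 ± 10.3 CPM in mouse group 1 (2.29-fold, edgeR adjusted p = 0.00442), and the phosphatase SHP-1, encoded by Ptpn6, 331 ± 110.3 CPM in mouse group 2 and 150.3 ± 24.1 CPM in mouse group 1 (2.26-fold, edgeR adjusted p = 0.00923). The ubiquitin ligase gene Cblb was lower, at 152 ± 27.2 CPM in mouse group 2 and 261 ± 53.5 CPM in mouse group 1 (0.528-fold, edgeR adjusted p = 0.00884). The remaining calls of this list, named to complete the count, were Sla2 (higher, 2.79-fold), Ptpn2 and Sit1 (lower, 0.671-fold and 0.660-fold). Of the 12 other coreceptors and costimulators 1 was higher, the tetraspanin Cd81 (1.70-fold, edgeR adjusted p = 0.0235), and 1 lower, Ctla4, beside 24.1% of all genes called in either direction. By DESeq2 4 of the 12 passed, where 4791 of 14758 genes did, and with no filter 4, where 3371 of 26416 genes did.

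Genes known to be induced soon after receptor triggering were higher in mouse group 2 in 5 of 16 and lower in 1 of 16, beside 13.1% and 11% of all genes. By DESeq2 10 of the 16 passed, where 4791 of 14758 genes did, and with no filter 9, where 3371 of 26416 genes did. The count was 5 with upper-quartile scaling, 7 by limma-voom and 6 in the authors' log2 table. Their median log2 difference in edgeR was 0.79, beside -0.014 over all genes. Egr3, a transcription factor of this response, stood at 19.9, 1.04, 1.96 and 1.31 CPM in Glut1Tg replicates 1 to 4, against 1.57, 13.6, 1.46, 5.10 and 8.34 CPM in WT replicates 1 to 5. Its values in the 4 libraries of mouse group 2 exceeded all others (8.43-fold, 95% interval 4.65 to 15.3, edgeR adjusted p = 0.00198), with Glut1Tg replicate 1 and WT replicate 2 highest. Nr4a1, an orphan nuclear receptor gene, averaged 94.0 ± 50.8 CPM in mouse group 2 and 31 ± 2.25 CPM in mouse group 1 (3.15-fold, edgeR adjusted p = 0.00786), Egr2 27.8 ± 7.98 CPM in mouse group 2 and 12.2 ± 2.73 CPM in mouse group 1 (2.31-fold, edgeR adjusted p = 0.0101) and Ier2 211 ± 35.8 CPM in mouse group 2 and 110.4 ± 28.0 CPM in mouse group 1 (2.13-fold, edgeR adjusted p = 0.00618). Rcan1, a calcineurin inhibitor gene, was the other higher one (1.73-fold) and the activation marker Cd69 the lower one (0.393-fold). Without Glut1Tg replicate 1, genes called between mouse groups numbered 668 of 14817. Of the 14 pathway genes picked because they passed in the fit of all libraries (up to 4 per list), 2 passed, Egr3 and Ier2. All 14 kept their direction, which was partly set by that pick and by the libraries that both fits share. Some of the calls lost kept nearly the same log2 difference, such as Csk at 0.61 (edgeR adjusted p = 0.0583), Ubash3a at 1.08 (edgeR adjusted p = 0.0584) and Bcl10 at -0.67 (edgeR adjusted p = 0.0787). Others became smaller, such as Nr4a1 at 1.14 and Egr2 at 0.79. Without it, calls numbered 0, 0, 1, 0 and 2 for the receptor chains, the kinases, adaptors and effectors, the negative regulators, the coreceptors and the early genes. The 22 kinases, adaptors and effectors had 7 calls without Glut1Tg replicate 3, where 4552 of 14817 genes were called. They had 1 call without Glut1Tg replicate 2, Glut1Tg replicate 4, WT replicate 1 or WT replicate 2. Over all genes these runs called 2634, 2525, 1916 and 2134 in turn. Without WT replicate 4, where 4126 of 14817 genes were called, the 7 receptor chains had 3 calls and the 12 coreceptors 4. The coreceptors had 0 without WT replicate 1 (1916 of all genes). They had 1 without WT replicate 2 (2134) or WT replicate 3 (1966). With the replicate number as a block 0 of the 14 passed.

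**Figure D5:**
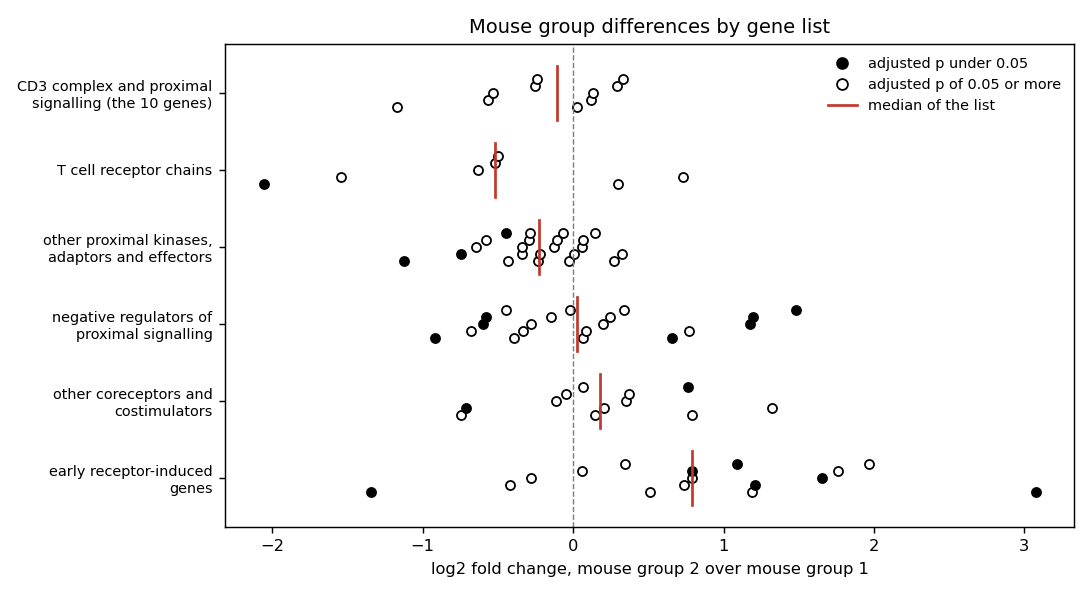
Fitted log2 fold changes of mouse group 2 over mouse group 1 for the 10 genes and 5 lists of pathway genes, 1 point per gene, filled where the adjusted p is under 0.05, with a vertical bar at the median of each list. No point of the 10 genes is filled, and the early receptor-induced genes have the highest median (0.79).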

How the data were processed

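The samples were 9 bulk mRNA libraries, 4 Glut1Tg and 5 WT. Raw read counts per gene, 75-base paired-end reads from a stranded mRNA kit per the labels' protocols, were deposited in 1 table. The submitters' processing notes name bcl2fastq, TopHat2, featureCounts, DESeq2 and mm10, without versions or roles. A second deposited table held log2 values, which sum to 0 in each gene relative to WT replicates 1 and 3, and served as an alternative only. From the counts, edgeR 4.0.16 in R 4.3.3 gave TMM scaling, a filter on low counts by genotype that kept 14817 of 28111 genes, and quasi-likelihood tests with Benjamini-Hochberg adjustment over those genes and a threshold of 0.05. The fit held mouse group and genotype, and a second fit their interaction. Log2 CPM used a prior count of 2. Each p named edgeR comes from these fits over all genes. Every pair of libraries differed by more than counting error. DESeq2 1.42.0 and limma 3.58.1 were alternatives. The genes and lists were chosen with earlier results of these data known. Pathway genes picked were those that passed, up to 4 per list by smallest p (1 of them is not reported here), and likeness was Pearson correlation with the mean of the CD3 chains. Intervals cover 95%. Fits to these values rest on few libraries, and counts from reads without molecular identifiers are not counts of molecules.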

Additional observations from a re-analysis of the deposited data

Results flagged for a closer look

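Among 50 groups of libraries tested for a value far from the rest, 3 held one, all in early receptor-induced genes. Chance alone gives about 5%, so the count lay near that share. Egr3 stood at 19.89 CPM in Glut1Tg replicate 1, where the next Glut1Tg library had 1.958 CPM. Nr4a1 stood at 153.5 CPM in Glut1Tg replicate 1, where the next Glut1Tg library had 30.07 CPM, and at 118.9 CPM in WT replicate 2, where the next WT library had 55.51 CPM. Both libraries belong to mouse group 2 and are the ones with the highest proliferation markers, and the part of proliferation was not tested. Each group held the libraries of 1 genotype, and Glut1Tg replicate 1 is the single Glut1Tg library of mouse group 2. Egr3 and Nr4a1 had been picked because they passed between mouse groups, where they were higher in mouse group 2. The high values of Glut1Tg replicate 1 in them were thus partly set by that pick. None of the 10 CD3 and proximal signalling genes had such a value.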

How the results depend on the processing

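Between genotypes, 0 of the 10 genes passed in any alternative run. Genes called over the whole table numbered 1, and 7 by DESeq2, 2 with no filter, 0 with the replicate block, 0 without Glut1Tg replicate 1 and WT replicate 2 together, 0 in mouse group 1 alone and 1 to 2 with 1 library left out. Slc2a1 kept its direction throughout but missed the threshold in the block, in the fit without both libraries and in mouse group 1 alone (edgeR adjusted p = 0.254, 0.124 and 0.496). Signs that turned, none of them called, were genotype log2 differences of Cd28 (0.031), Cd3d (0.17), Cd3e (-0.013) and Lcp2 (-0.024) with no mouse group term; of Cd3d without both libraries (0.13); of Cd3d (0.15) and Lck (0.0081) in mouse group 1 alone; of Cd3e (-0.023), Cd3g (-0.046) and Lat (-0.040) with upper-quartile scaling; of Cd3e in the replicate block (-0.0024); of Cd3g by DESeq2 (-0.0036); and of Cd3g (-0.010) and Lat (-0.00033) in the authors' log2 table. With 1 library left out the genotype differences ran from -0.55 to 0.035 for Cd28, -0.15 to 0.13 for Cd3d, -0.059 to 0.11 for Cd3e, -0.091 to 0.15 for Cd3g, -0.21 to 0.0079 for Cd4 and -0.13 to 0.25 for Lat.

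Between mouse groups, genes called numbered 3576, and 0 with the replicate block, 593 without both libraries and 668 to 4552 with 1 library left out (668 without Glut1Tg replicate 1, 1916 without WT replicate 1, 1966 without WT replicate 3 and 2134 without WT replicate 2). Of the 10 genes 3 were called by DESeq2 (Cd3d, Cd28 and Lat), where 4791 of 14758 genes were called. The count was 1 with upper-quartile scaling (Cd28, beside 3493 of 14817 genes) and 1 by limma-voom (Cd3d, beside 3503 of 14817 genes). It was 1 with no filter (Cd28, beside 3371 of 26416 genes) and 0 to 2 with 1 library left out. These counts are not read as a result about the 10 genes. Lck turned to -0.067 in the block and ran from -0.012 to 0.091 with 1 library left out. The interaction called 0 genes, 2 by DESeq2 and 0 to 123 with 1 library left out (123 without WT replicate 2, 3 without Glut1Tg replicate 3), and could not be fitted without Glut1Tg replicate 1. Upper-quartile scaling moved the interaction's median to -0.12. The cause of these shifts was not tested.

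Replicate numbers are in the titles, but numbers 1, 2 and 4 join libraries of different mouse groups. Same-numbered libraries correlated at -0.51, -0.59, 0.23 and -0.21, and 0 correlated best with their own number. The block is thus not read as a pairing, though such correlations cannot show whether equal numbers were handled together. Mouse group 2 holds a single Glut1Tg library, which limits the interaction and the separation of genotype from mouse group. Glut1Tg replicates 2 and 4, of mouse group 1, were the only libraries with a female pattern of Xist and Ddx3y. This limits the separation of genotype from sex, also in mouse group 1 alone.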
